A study of Homo sapiens with 18 samples.

Results

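KDM1A, KDM1B, KDM5A, KDM5B and KDM5C encode demethylases that take methyl groups off the histone lysine H3K4. They were chosen by symbol from a table of RNA-seq counts, where they are 5 of 58815 genes, and all 5 passed the filter on low counts that left 12081 genes for testing. The cells were LM2, BrM3 and BoM, derivatives of MDA-MB-231 that grow in lung, brain and bone, respectively. MDA-MB-231 is a long-established line grown from a human triple-negative breast carcinoma. Each line carried a doxycycline (DOX)-inducible short hairpin RNA, either the control shCtrl or shWDR5 against WDR5, and all libraries, shCtrl included, came from cells given DOX at 1 μg/mL for 3 days. There were 3 libraries per line and hairpin, which gives 6 groups and 18 libraries, and the labels describe the replicates as biological replicates taken at different passages. The model has limits, since the data rest on 1 hairpin against WDR5 and each line is a selected derivative of the same parental cells.

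Methylated H3K4 marks active promoters and enhancers, and its level depends on the balance of the enzymes that write it and those that erase it. KDM1A (LSD1) and KDM1B (LSD2) are flavin-dependent amine oxidases that act on mono- and dimethylated H3K4, whereas the KDM5 enzymes are Jumonji-domain dioxygenases that act on di- and trimethylated H3K4. WDR5 belongs to the opposite side of this balance, as a shared subunit of the KMT2 methyltransferase complexes. The comparisons ask whether transcripts of the erasers differed after WDR5 was lowered and whether they differed among the lines. They measure RNA, and neither protein nor H3K4 methylation was analysed here.

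Total counts were 17485841 to 119667013 per library, a 6.84-fold range, and the deepest library was shCtrl replicate 3 of LM2. A member's count in a library was between 419, for KDM1B, and 26768, for KDM5C. The libraries expressed VIM, a mesenchymal filament gene, at 1490 to 2230 normalized CPM (counts scaled to the library's total), and the keratin gene KRT18 at 263 to 501 CPM. Of the other epithelial markers, KRT8 was at 194 to 447 CPM, KRT19 at 24.2 to 170 CPM and EPCAM at 4.39 to 10.1 CPM. CDH1, which encodes E-cadherin, did not pass the filter, with at most 0.601 CPM. ESR1 and PGR, the hormone receptor genes, stayed at or below 0.537 and 0.715 CPM and did not pass it either, whereas the receptor gene ERBB2 was at 41.5 to 83.4 CPM. The 3 leukocyte markers did not pass, with PTPRC the highest at up to 1.06 CPM. Of the endothelial markers only PECAM1 passed, at 0.848 to 4.67 CPM, and of the fibroblast markers COL1A1 and COL1A2 passed, at up to 87.1 and 6.05 CPM, while DCN and LUM did not. Their part in the results was not tested. WDR5, the targeted gene, had a mean of 125 ± 11.1 CPM (SD, n = 3) with shCtrl and 23.1 ± 2.25 CPM with shWDR5 in LM2. It had 86.1 ± 6.95 and 21.9 ± 1.42 CPM in BrM3, and 89.5 ± 1.72 and 19.0 ± 4.39 CPM in BoM. WDR5 was thus 5.40-, 3.93- and 4.71-fold lower with shWDR5 in the 3 lines, and its shWDR5 and shCtrl ranges did not overlap in any of them.

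No member passed the test for a response to WDR5 knockdown in the fit of 6 groups. With edgeR's quasi-likelihood test and Benjamini-Hochberg adjustment, 0 of 5 members were called at an adjusted p under 0.05 in LM2, where 6.26% of all tested genes were called. The count was also 0 of 5 in BrM3, against 10.7% of all genes, and 0 of 5 in BoM, against 16.1%. It was 0 of 5 for the response averaged over the 3 lines, against 35.4% of all genes. None of the 15 tests by line and none of the 5 averaged ones had an unadjusted p under 0.05, and DESeq2 called 0 of 5 in each comparison as well. The smallest adjusted p by line was 0.30. The log2 fold changes ran from -0.024 to 0.19, and 13 of 15 were above 0. The medians over all tested genes were -0.00091 in LM2, -0.0054 in BrM3 and 0.015 in BoM. In 14 of 15 the shWDR5 and shCtrl ranges overlapped, a share that was not counted over all tested genes. The 95% confidence interval of the averaged response was -1.97 to 13.6% for KDM1A, -4.61 to 16.6% for KDM1B and -6.06 to 13.1% for KDM5C. It was -3.24 to 28.8% for KDM5A and -0.715 to 24.4% for KDM5B, so that larger rises lay within it for these 2 genes. The averaged count depended on the fit, and other settings called up to 4 of 5 members, each of them higher with shWDR5. The setting that called 4, GC removal with a replicate block, called 7279 of all 12081 tested genes, 4454 of them higher. In bulk RNA, fewer cells with a transcript and less of it per cell cannot be told apart.

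Among the shCtrl libraries, the members differed between lines by more. BoM and LM2 differed in 4 of 5 members, against 51.8% of all tested genes, and BrM3 and LM2 in 4 of 5, against 47.6%. BoM and BrM3 differed in 2 of 5, against 37.6%. The 10 line differences that were called are the same 10 of 15 in which the shCtrl ranges of the lines did not overlap. Calls and ranges come from the same libraries, so their match adds no separate support. How often ranges of lines, with shCtrl or over both hairpins, were separate over all tested genes was not counted. KDM5C carried the widest one, being 2.60-fold lower in BoM and 2.47-fold lower in BrM3 than in LM2. These 3 comparisons reuse the same shCtrl libraries and are not independent of each other.

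**Figure D1:**
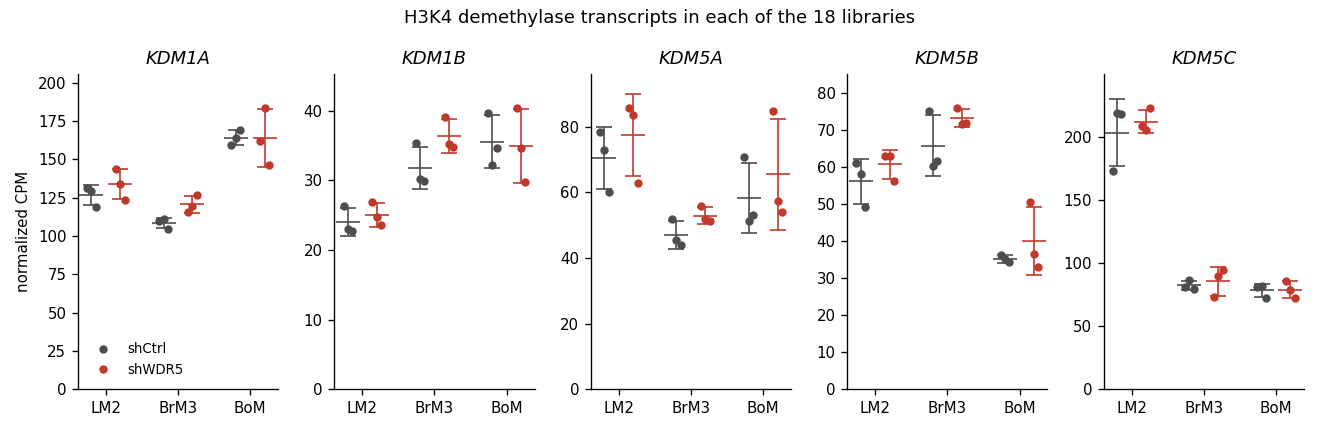
Normalized CPM (y axis, from 0) of each H3K4 demethylase transcript in the 18 libraries, by line (x axis) and hairpin (grey shCtrl, red shWDR5); points are libraries, and bars are the mean and SD of 3. KDM5C separates LM2, at 173 to 223 CPM over both hairpins, from BrM3 and BoM, at 71.9 to 94.2 CPM.

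KDM1A is the catalytic subunit of the CoREST complex and also joins the NuRD complex. In the files it is ENSG00000004487, and GENCODE release 44 places it on the plus strand of GRCh38 at chr1:23019443-23083689. In LM2 its level was 131, 129 and 119 CPM in shCtrl replicates 1 to 3 and 144, 134 and 124 CPM in the shWDR5 replicates. The ranges overlapped, and the log2 fold change was 0.082 (SE 0.0871, adjusted p = 0.69). In BrM3 the shCtrl libraries held 110, 111 and 105 CPM and the shWDR5 libraries 115, 120 and 127 CPM. This was the only member and line with all 3 shWDR5 libraries above all 3 shCtrl libraries, and its log2 fold change of 0.15 (SE 0.0873) had an adjusted p of 0.30. In BoM the shCtrl values of 160, 164 and 169 CPM lay inside the shWDR5 values of 162, 183 and 146 CPM. There the log2 fold change was -0.0024 (SE 0.0871, adjusted p = 0.99).

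Among the lines, KDM1A was highest in BoM. Its mean with shCtrl was 164 ± 4.89 CPM (SD, n = 3) in BoM, 127 ± 6.58 CPM in LM2 and 109 ± 3.28 CPM in BrM3. The excess of BoM over LM2 was 0.38 on the log2 scale (SE 0.0872, adjusted p = 0.0016), and that over BrM3 was 0.60 (SE 0.0874, adjusted p = 4.6e-05). Over both hairpins, the 6 BoM libraries at 146 to 183 CPM all lay above the other 12. BrM3 was lower than LM2 by a log2 fold change of -0.22 (SE 0.0871, adjusted p = 0.045), which is close to the threshold. That call was kept in only 8 of 18 fits that each left out 1 library and in 4 of 8 other settings, with adjusted p between 0.0052 and 0.34 over all of them, although the direction did not change.

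KDM1B is the second amine oxidase of the family, which works with the histone-binding protein GLYR1 on the bodies of transcribed genes. It is ENSG00000165097, on the plus strand at chr6:18155329-18223854. Its counts were the lowest of the members. In LM2 the shCtrl libraries held 26.4, 23.0 and 22.8 CPM and the shWDR5 libraries 26.9, 24.7 and 23.6 CPM, and the values interleaved. In BrM3 they were 35.3, 30.2 and 29.9 CPM with shCtrl and 39.1, 35.2 and 34.8 CPM with shWDR5. The highest shCtrl value fell among the shWDR5 values, and the log2 fold change was 0.19 (SE 0.119, adjusted p = 0.35), the largest of any member in any line. In BoM the values were 39.7, 32.2 and 34.7 CPM with shCtrl and 40.4, 34.6 and 29.7 CPM with shWDR5, so that the wider shWDR5 range enclosed the shCtrl range.

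KDM1B was lower in LM2 than in either other line. With shCtrl its means were 24.1 ± 2.03 CPM in LM2, as against 31.8 ± 3.03 CPM in BrM3 and 35.5 ± 3.80 CPM in BoM (SD, n = 3 each). The log2 fold change over LM2 was 0.57 in BoM (SE 0.119, adjusted p = 0.00075) and 0.41 in BrM3 (SE 0.118, adjusted p = 0.0092). BoM and BrM3 overlapped, with a log2 fold change of 0.16 whose 95% interval was -0.092 to 0.41 (adjusted p = 0.31). Over both hairpins the 6 LM2 libraries, at 22.8 to 26.9 CPM, lay below the lowest library of the other lines, at 29.7 CPM. The BrM3 difference had an adjusted p of 0.056 without BrM3 shCtrl replicate 1.

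KDM5A was first known as an RB1-binding protein and acts with the SIN3 deacetylase complex. It is ENSG00000073614, on the minus strand at chr12:280057-389320, and 48 of its exonic bases are shared with CCDC77 on the other strand. The strand setting of the counting was not given in the sources used here, so reads in those bases cannot be assigned to either gene. KDM5A held 78.4, 73.0 and 60.1 CPM in the shCtrl libraries of LM2 and 85.7, 83.6 and 63.0 CPM in the shWDR5 libraries. BrM3 had 51.8, 45.5 and 43.9 CPM with shCtrl and 55.9, 51.8 and 51.2 CPM with shWDR5. The ranges overlapped in both lines, although in BrM3 only the highest shCtrl library reached into the shWDR5 range. BoM had 70.8, 51.3 and 53.0 CPM with shCtrl and 84.9, 57.5 and 54.1 CPM with shWDR5, and in each of its groups replicate 1 stood above the other two. Averaged over the lines, the log2 fold change was 0.16 (SE 0.0977, adjusted p = 0.22), and its 95% interval of -0.047 to 0.37 was the widest of the members. Without shWDR5 replicate 1 of BoM, the log2 fold change in BoM went from 0.17 to -0.067.

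KDM5A differed between lines in a single pair. With shCtrl it was 58.4 ± 10.8 CPM in BoM, 47.1 ± 4.15 CPM in BrM3 and 70.5 ± 9.42 CPM in LM2 (SD, n = 3 each). BrM3 was lower than LM2 by a log2 fold change of -0.58 (SE 0.169, adjusted p = 0.0093). BoM overlapped with both, with log2 fold changes of -0.27 against LM2 (adjusted p = 0.19) and 0.31 against BrM3 (adjusted p = 0.16). The first of these was called once the dependence on GC content had been removed from each library, at -0.34 (adjusted p = 0.041).

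KDM5B is a paralogue known for high expression in breast cancers. It is ENSG00000117139, on the minus strand at chr1:202724495-202808487. In LM2 its level was 61.1, 58.2 and 49.3 CPM with shCtrl and 63.0, 63.2 and 56.2 CPM with shWDR5. In BrM3 it was 75.3, 60.4 and 61.7 CPM with shCtrl and 76.0, 71.8 and 71.9 CPM with shWDR5. In both lines the highest shCtrl library lay within the shWDR5 range. BoM had 36.2, 35.2 and 34.3 CPM with shCtrl, the tightest group of this gene, and 50.6, 36.5 and 33.1 CPM with shWDR5, of which replicate 1 stood apart. The averaged log2 fold change was 0.15 (SE 0.0770, adjusted p = 0.14), with a 95% interval of -0.010 to 0.32 and the smallest averaged p of the members. Within BoM the log2 fold change was 0.19, and it was -0.019 without shWDR5 replicate 1.

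BoM was the line with little KDM5B. Its shCtrl mean of 35.3 ± 0.996 CPM compared with 56.2 ± 6.19 CPM in LM2 and 65.8 ± 8.26 CPM in BrM3 (SD, n = 3 each). The log2 fold changes of BoM were -0.67 against LM2 (SE 0.134, adjusted p = 0.00049) and -0.90 against BrM3 (SE 0.135, adjusted p = 5.8e-05), or 1.59- and 1.87-fold lower. BrM3 and LM2 overlapped, and their log2 fold change of 0.23 had an adjusted p of 0.16. The high BoM library, at 50.6 CPM, was the only BoM library within the LM2 range of 49.3 to 63.2 CPM over both hairpins. KDM5B and KDM1A thus ordered BoM and BrM3 in opposite ways.

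KDM5C is an X-linked member of the KDM5 family in which mutations cause intellectual disability. It is ENSG00000126012, on the minus strand at chrX:53176283-53225422. In LM2 its shCtrl libraries held 173, 219 and 218 CPM and its shWDR5 libraries 208, 205 and 223 CPM. Replicate 1 of shCtrl was the low one, and the remaining 5 libraries lay between 205 and 223 CPM. BrM3 held 80.7, 86.2 and 79.8 CPM with shCtrl and 72.6, 89.5 and 94.2 CPM with shWDR5. BoM held 80.9, 81.9 and 71.9 CPM with shCtrl and 86.0, 78.2 and 72.5 CPM with shWDR5. The ranges overlapped in all 3 lines, and the log2 fold changes were 0.061, 0.058 and 0.012 in LM2, BrM3 and BoM. Their average was 0.044 (SE 0.0634, adjusted p = 0.62), the smallest of the members.

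Between lines, KDM5C showed the largest difference of the 5 genes. LM2 had a shCtrl mean of 203 ± 26.4 CPM, beside 82.2 ± 3.47 CPM in BrM3 and 78.2 ± 5.47 CPM in BoM (SD, n = 3 each). The log2 fold change against LM2 was -1.38 in BoM (SE 0.111, adjusted p = 2.1e-08) and -1.31 in BrM3 (SE 0.111, adjusted p = 4.1e-08). Ordered by p among all 12081 genes, these differences ranked 379 and 415. BoM and BrM3 overlapped, and their log2 fold change of -0.071 had a 95% interval of -0.30 to 0.16. The differences from LM2 were called in all 18 fits that left out 1 library, with log2 fold changes of -1.48 to -1.32 for BoM and -1.41 to -1.25 for BrM3.

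**Figure D2:**
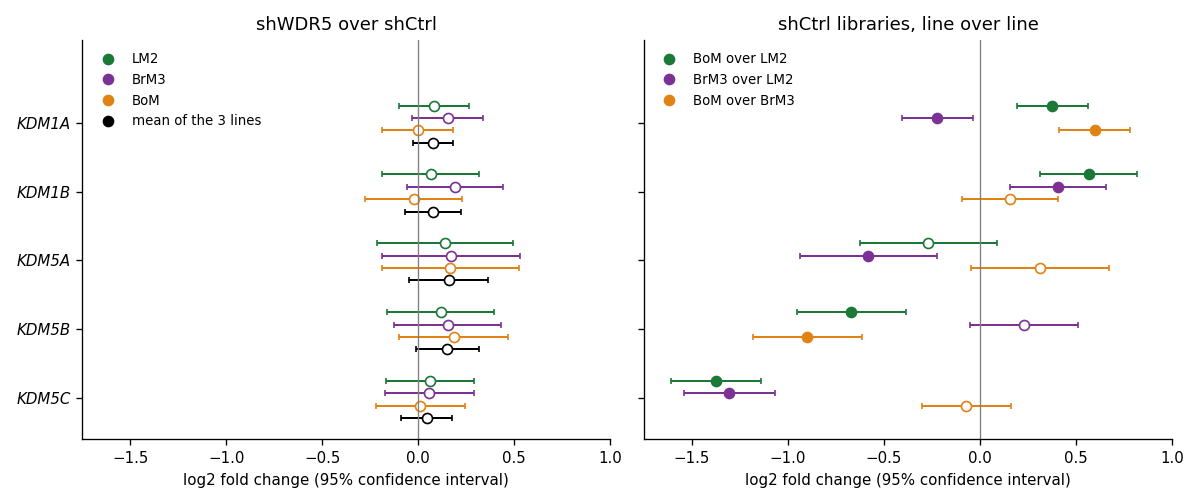
Log2 fold change (x axis) with its 95% confidence interval for each member, for shWDR5 over shCtrl (left) and for pairs of lines among the shCtrl libraries (right); filled circles have an adjusted p under 0.05. All 20 circles on the left are open and lie between -0.024 and 0.19, whereas 10 of 15 on the right are filled, down to -1.38 for KDM5C.

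The response to shWDR5 did not differ detectably between lines for any member. Of the 15 differences in response, 5 members in 3 pairs of lines, 0 were called and 0 had an unadjusted p under 0.05, with a smallest unadjusted p of 0.22. Such differences were called for at most 0.00828% of all tested genes in any pair of lines. The largest estimate was that of KDM1B, whose response in BoM was 0.21 lower than in BrM3 on the log2 scale, with a 95% interval for BoM minus BrM3 of -0.57 to 0.14. DESeq2 also called 0 of the 15.

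Removal of GC dependence changed the averaged response. Once the dependence of each library on GC content had been removed, 2 of 5 members were called, KDM5B at 0.18 (SE 0.0641, adjusted p = 0.028) and KDM5C at 0.14 (SE 0.0416, adjusted p = 0.0096). In the same setting, the number of genes called among all tested went from 4280 to 6187, of which 3750 were higher with shWDR5, against 1880 of 4280 before. Without BoM shWDR5 replicate 3, KDM5B alone was called, at 0.19 (adjusted p = 0.049).

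Levels of different genes can be compared only per length, and the order of the members depended on the length used. Per kb of the union of annotated exons, KDM5C was highest in LM2 at 16.5 CPM per kb with shCtrl, followed by KDM1A at 6.91, KDM5A at 5.86, KDM1B at 4.28 and KDM5B at 2.26. The ranges of KDM1A and KDM5A overlapped there, and the other neighbours were separate. In BrM3 with shCtrl the order was KDM5C at 6.67, KDM1A at 5.92, KDM1B at 5.67, KDM5A at 3.91 and KDM5B at 2.64 CPM per kb, in which KDM1A and KDM1B overlapped. In BoM with shCtrl it was KDM1A at 8.96, KDM5C at 6.35, KDM1B at 6.32, KDM5A at 4.85 and KDM5B at 1.42 CPM per kb. The middle 3 of these could not be ordered beyond the spread of the libraries.

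The exon union is much longer than a typical transcript for some members. It is 18.3 kb for KDM1A and 24.9 kb for KDM5B, whose canonical transcripts are 3.08 and 9.29 kb. Per kb of the canonical transcript, a choice made after the data were seen, KDM1A was highest in all 6 groups, against 2 of 6 with the exon union, and KDM5C was next in all 6. In LM2 with shCtrl the values were then 41.0 ± 2.13 CPM per kb for KDM1A and 35.0 ± 4.55 CPM per kb for KDM5C, and the ranges did not overlap. The remaining 3 members were between 5.30 and 6.59 CPM per kb in that group. Which of KDM1A and KDM5C was the more abundant in LM2 and BrM3 is therefore not settled by these counts.

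With either length, KDM5C had the largest mean part of the summed KDM5 level in each group. In BoM with shWDR5 and the exon union, its range of 43.4 to 50.4% overlapped with that of KDM5A, at 37.9 to 43.9%. These genes were therefore not ordered in that group. With the exon union, its share with shCtrl was 66.9 ± 5.46% in LM2, beside 50.5 ± 2.99% in BrM3 and 50.4 ± 3.35% in BoM (SD, n = 3 each). With the canonical transcript they were 73.3 ± 4.75%, 55.3 ± 3.18% and 59.3 ± 2.61% in the same order. The LM2 libraries, at 61.0 to 71.7% with the exon union, lay above those of the other lines, at 47.2 to 53.9%. KDM5B had its largest share in BrM3, at 19.9 ± 1.73% with the exon union, and KDM5A in BoM, at 38.3 ± 3.86%, both with shCtrl.

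**Figure D3:**
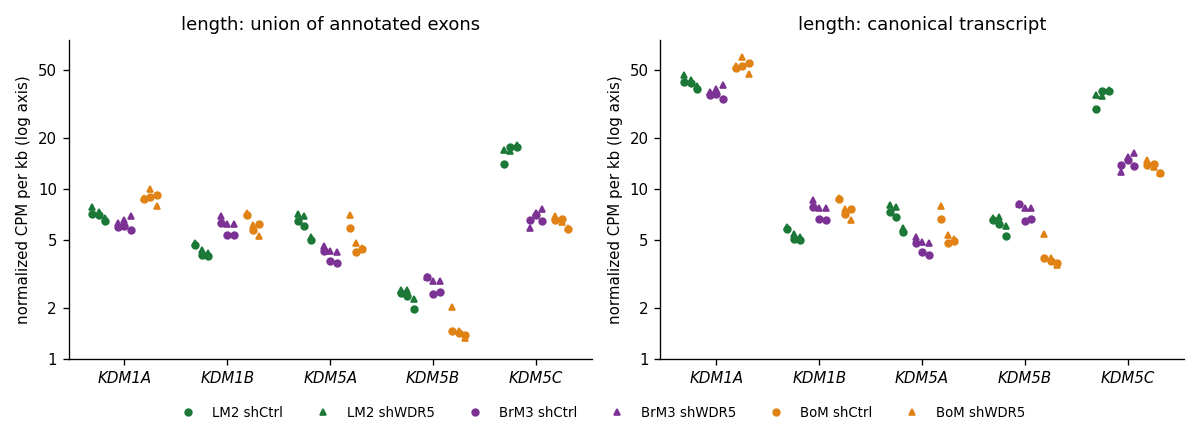
Normalized CPM per kb (y axis, log scale) of each member in the 18 libraries, with the union of annotated exons as length (left) or the canonical transcript (right); colours are lines, circles shCtrl and triangles shWDR5. KDM1A is highest in 2 of 6 groups on the left and in 6 of 6 on the right, and KDM5C in LM2 stands apart from the other lines in both.

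The averaged response was also read in 5 lists of genes that work with or against the members. Over all tested genes 15.6% were called higher and 19.9% lower in it, with a median log2 fold change of 0.0028. The members' own median was 0.077. Of 22 tested partners of KDM1A and KDM1B, 6 rose and 2 fell, with a median of 0.082. MTA2, a NuRD subunit, rose by 0.37 on the log2 scale (SE 0.0547, adjusted p = 6.6e-05), from means of 264, 281 and 297 CPM to 321, 376 and 393 CPM in LM2, BrM3 and BoM. RBBP4, a histone chaperone, rose by 0.315 (SE 0.0483, adjusted p = 9.1e-05), and it was the one list gene named here that was higher in each line's own test. RCOR1, the CoREST scaffold that binds KDM1A, rose by 0.28 (SE 0.0635, adjusted p = 0.0025). GSE1, found with CoREST and HDAC1, fell by 0.33 (SE 0.0654, adjusted p = 0.00086).

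Of 24 tested KDM5 partners, 5 rose and 3 fell, with a median of 0.023. E2F6, a repressor of the PRC1.6 complex that also holds KDM5C, rose by 0.35 (SE 0.0520, adjusted p = 6.0e-05), and ING1, a reader subunit of SIN3 complexes, rose by 0.32 (SE 0.0629, adjusted p = 0.00082). GATAD1, which is found with KDM5A and SIN3B, fell by 0.325 (SE 0.0575, adjusted p = 0.00034). MGA, the scaffold of PRC1.6, had a log2 fold change of 0.31 (SE 0.118) whose adjusted p was under the threshold only before rounding to 0.05. Its call was kept in 6 of 18 fits that left out 1 library, and upper-quartile scaling and thinning ended it too.

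Of 17 other histone lysine demethylases, 4 rose and 1 fell, with a median of 0.019. The H3K27 demethylase KDM6A rose by 0.23 (SE 0.0501, adjusted p = 0.0019), JMJD1C of the H3K9 demethylase family by 0.28 (SE 0.0789, adjusted p = 0.0098), and KDM7A by 0.355 (SE 0.126, adjusted p = 0.037). The KDM7A call was kept in 9 of 18 fits that left out 1 library, and it was lost with upper-quartile scaling (adjusted p = 0.078) and after thinning (adjusted p = 0.062). KDM4D, an H3K9 demethylase at means of only 1.77 to 5.31 CPM with shCtrl, fell by 0.55 (SE 0.118, adjusted p = 0.0016). Among the members the largest averaged estimate was the 0.16 of KDM5A, which did not pass the test.

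On the writing side, 2 of 21 tested H3K4 methyltransferases and subunits rose and 2 fell, with a median of 0.028. MEN1, a subunit of the KMT2A and KMT2B complexes, fell by 0.55 (SE 0.0824, adjusted p = 8.0e-05), from 60.1, 58.0 and 59.4 CPM to 38.8, 45.6 and 37.7 CPM in LM2, BrM3 and BoM. PAXIP1, of the KMT2C and KMT2D complexes, fell by 0.265 (SE 0.0450, adjusted p = 0.00024). The methyltransferase SETD1B rose by 0.37 (SE 0.0949, adjusted p = 0.0061), and the core subunit ASH2L by 0.16 (SE 0.0496, adjusted p = 0.018). Of 17 readers of H3K4 methylation, 3 rose and 1 fell, with a median of 0.076. ZMYND8, which binds KDM5C, fell by 0.385 (SE 0.0436, adjusted p = 4.2e-06) and was lower in each line's own test as well, while ING3, CHD1 and PHF23 rose by 0.33, 0.26 and 0.20 (adjusted p = 0.0047, 0.033 and 0.016). The CHD1 call was kept in 10 of 18 fits that left out 1 library, and upper-quartile scaling ended the calls of CHD1, PHF23 and ASH2L (adjusted p = 0.092, 0.086 and 0.11). That of ASH2L was also lost without a filter (adjusted p = 0.073). The share called was 36.4%, 33.3%, 29.4%, 19.0% and 23.5% in the lists as ordered here, close to or below that of all genes.

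**Figure D4:**
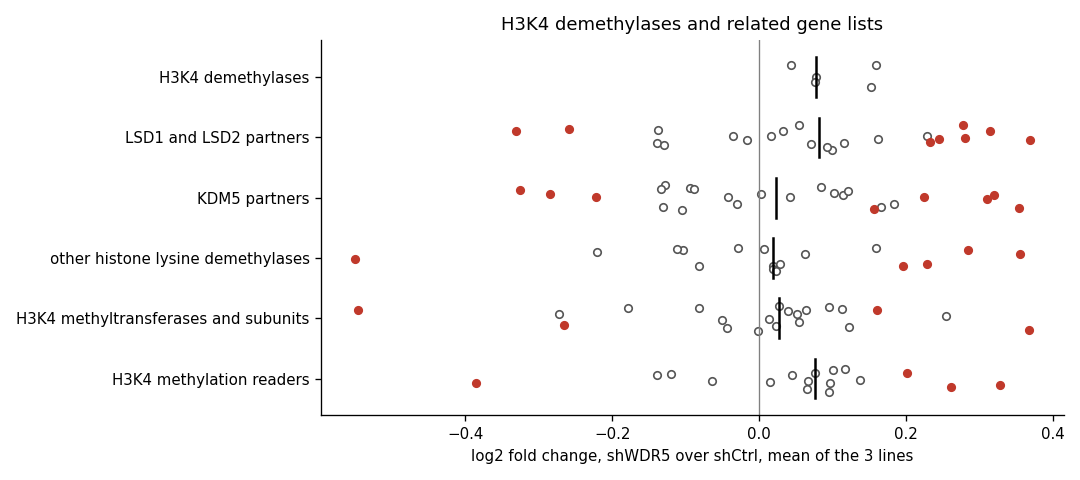
Log2 fold change of shWDR5 over shCtrl averaged over the 3 lines (x axis) for the members and the tested genes of 5 lists (rows); red points have an adjusted p under 0.05, open points do not, and black bars are medians. The 5 members lie between 0.044 and 0.16 with no red point, while each list holds red points on both sides of 0.

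Between shCtrl lines, the lists held called genes in both directions, except the other demethylases in BoM against BrM3, of which 0 were higher. In BoM against LM2, where 25.9% of all tested genes were higher and 25.8% lower, 5 of 22 partners of KDM1A and KDM1B were higher and 9 lower, against 5 and 11 of the 24 KDM5 partners, 3 and 7 of the 17 other demethylases, 1 and 7 of the 21 methyltransferases and subunits, and 3 and 5 of the 17 readers. The medians were -0.13, -0.23, -0.22, -0.17 and -0.027, beside -0.012 for all tested genes. In BrM3 against LM2 the lists had 4 and 4, 5 and 8, 3 and 5, 3 and 4, and 2 and 1 genes higher and lower, beside 24.2% and 23.4% of all tested genes. In BoM against BrM3 they had 3 and 4, 2 and 4, 0 and 6, 1 and 3, and 2 and 5, beside 17.8% and 19.8%.

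Over the 18 libraries, the members did not move as a unit. As a description of libraries that share 3 lines, Pearson's r of log2 normalized CPM was -0.79 between KDM1A and KDM5B and -0.86 between KDM1B and KDM5C, whereas it was 0.61 between KDM5A and KDM5C. The other 7 pairs were between -0.26 and 0.35. The genes whose pattern was most like that of KDM5C were FRMD4A, a FERM-domain scaffold gene, at r = 0.992, and VAV2, at r = 0.991. With shCtrl, FRMD4A had 68.7, 35.0 and 33.6 CPM in LM2, BrM3 and BoM, and VAV2 had 88.5, 36.3 and 34.6 CPM. Both thus had the excess in LM2 that KDM5C had.

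KDM5B was most like ZEB2, a repressor of epithelial genes, at r = 0.971, and TRPS1, a GATA-type repressor of the breast epithelium, at r = 0.966. ZEB2 had 30.9, 34.7 and 16.1 CPM with shCtrl in LM2, BrM3 and BoM, and TRPS1 21.6, 27.6 and 11.7 CPM, with BoM lowest for both as for KDM5B. KDM5A was most like FAT1, an atypical cadherin gene, at r = 0.975, and ZNF106, at r = 0.962. FAT1 too had a large spread among the shCtrl libraries of BoM, 681 ± 179 CPM (SD, n = 3). KDM1A was most like DHDDS, of the dolichol pathway, at r = 0.970, and DAB2, an endocytic adaptor gene, at r = 0.952. KDM1B was most like VTI1A, a SNARE gene, and EML4, a microtubule-associated protein gene, both at r = 0.940. All these coefficients rest on the same 18 libraries and were picked as the highest among 12081 genes.

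The position of the members in the genome is a property that the choice by symbol did not use. Within 2 Mb on either side of KDM5C, a window set after results of these data were known, 20 other genes were tested, and in BoM against LM2 14 of them were lower and 3 higher, with a median of -0.55. Over all tested genes 25.8% were lower and 25.9% higher. In BrM3 against LM2 11 of the 20 were lower and 3 higher, with a median of -0.58, against 23.4% and 24.2% of all genes. In BoM against BrM3, where KDM5C itself did not differ, 7 were lower and 4 higher, with a median of 0.011.

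The genes named in this paragraph were chosen after their values were seen. IQSEC2, which starts 95.9 kb from the start of KDM5C, had log2 fold changes of -2.07 in BoM (adjusted p = 2.2e-08) and -1.90 in BrM3 (adjusted p = 5.5e-08) against LM2. SMC1A, a cohesin subunit gene at 197 kb, had -0.98 and -1.41, and the ubiquitin ligase gene HUWE1, at 461 kb, had -0.56 and -0.73. PHF8, a demethylase gene of the list above at 824 kb, had -0.55 and -0.52. The lower level in both lines was not a property of every neighbour. HSD17B10, at 209 kb, had -0.154 and -0.205 (adjusted p = 0.43 and 0.29), TSPYL2 on the other side had 0.37 and 0.12, and the cancer-testis genes XAGE2 and PAGE5 were higher in both lines, by 7.33 and 6.60 on the log2 scale in BoM.

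Around KDM1A, 31 other genes were tested within the same window. In BoM against BrM3 21 were higher and 3 lower, with a median of 0.48, beside 17.8% and 19.8% of all tested genes. In BoM against LM2 14 were higher and 4 lower, with a median of 0.28, and in BrM3 against LM2 3 were higher and 13 lower, with a median of -0.19. The neighbours' medians thus had the sign of the KDM1A difference in each pair of lines. The pairs share their shCtrl libraries, so these signs are not independent of each other. Of 30 tested neighbours of KDM5B, 17 were lower and 3 higher in BoM than in BrM3, with a median of -0.38, and 16 were lower and 3 higher in BoM than in LM2, with a median of -0.35. Of the 11 neighbours of KDM1B, 6 were higher and 2 lower in BoM than in LM2, with a median of 0.38, but 3 were higher and 3 lower in BrM3 than in LM2, with a median of 0.158. Of the 12 neighbours of KDM5A, 2 were higher and 7 lower in BrM3 than in LM2, with a median of -0.39. In the pairs of lines in which these members were not called, the neighbours' medians were mostly small. They were 0.065 for KDM5B in BrM3 against LM2 (10 higher, 8 lower) and 0.013 for KDM1B in BoM against BrM3 (2 higher, 1 lower). For KDM5A they were -0.021 in BoM against BrM3 (1 higher, 2 lower) and -0.318 in BoM against LM2 (0 higher, 5 lower).

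**Figure D5:**
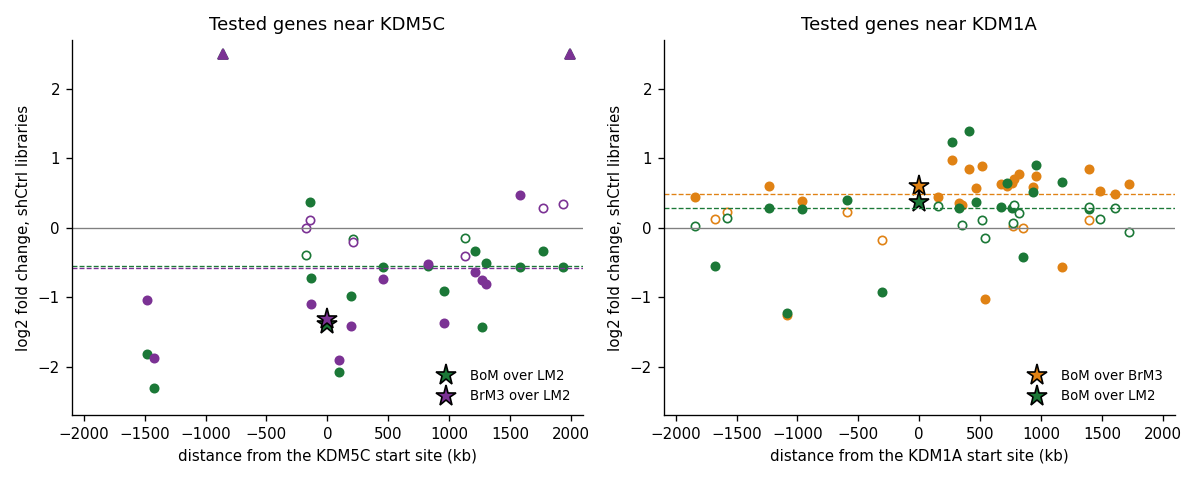
Log2 fold change between shCtrl lines (y axis) of tested genes against the distance of their start from that of KDM5C (left) or KDM1A (right, both in kb along the plus strand); stars are the member, filled circles have an adjusted p under 0.05, dashed lines are neighbour medians, and triangles mark genes above the axis limit. The neighbour medians lie at -0.55 and -0.58 around KDM5C and at 0.48 and 0.28 around KDM1A, with single genes on both sides of 0.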

How the data were processed

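RNA-seq of 18 libraries was analysed from a table in which the authors deposited raw counts of reads per gene, without normalization. Per the labels and the study's methods, the libraries were TruSeq stranded mRNA libraries sequenced as paired ends, processed with CASAVA 1.8.2 and aligned to hg38 with STAR 2.7.0. The strand setting of the counting was not given in the sources used here. The deposited log2 fold changes and p-values made by the authors with DESeq2 were not used. The table holds 0 spike-in rows, so values are relative to each library's TMM-scaled total and a change in total RNA was not analysed. There were 0 unused per-sample columns. Samples were grouped by their titles. BrM3 is the methods' name for the line that the cell line label calls BrM2, and the source labels, which name another variant for many libraries, were not used.

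The highest normalized count of a gene had to exceed 146, the threshold among 100 between 1 and 200 at which the loess-smoothed (span 0.3) Jaccard index between replicates was highest (0.970), a recomputation of the HTSFilter criterion. The 6 groups were fitted in 1 model with edgeR 4.0.16 in R 4.3.3 (TMM scaling, two-sided quasi-likelihood test, 12 residual degrees of freedom), and p-values were adjusted by Benjamini-Hochberg over 12081 genes and called under 0.05. Standard errors were derived from the F statistic, and 95% intervals from the t distribution. The p-values measure the spread between passages. Alternatives were DESeq2 1.42.0, RLE and upper-quartile scaling, filterByExpr, no filter, a replicate block, removal of GC dependence by loess (span 0.5; GC was known for 99.8% of tested genes) with and without the block, a fit to only the libraries compared, thinning to 17485841 counts, and leaving out each library. The fit was tested on simulated data. The 18 replicate pairs within groups had a chi-square per gene of 5.15 to 90.6, so each library was counted as 1 replicate.

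Levels per length used the exon union of GENCODE 44 on GRCh38. Transcript stretches of 50 bases shared with other genes made up at most 0.664% of any member. The named genes are the members, WDR5, of each list up to 4 genes with the largest averaged change among those called, and the 2 genes most correlated with each member over the 18 libraries. The members and lists were chosen with earlier results of these data known. Of the 27 partners of KDM1A and KDM1B listed, 26 were in the table and 22 were tested.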

Additional observations from a re-analysis of the deposited data

How the results depend on the processing

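The call of 0 of 5 members was kept in LM2 and BoM and for the differences in response under every alternative tried. For the averaged response it became 2 after removal of GC dependence, where 6187 of all 12081 tested genes were called. Leaving out 1 library gave 0 to 1 members for it, the 1 being KDM5B without BoM shWDR5 replicate 3. For BrM3 against LM2 among shCtrl libraries, leaving out 1 library gave 2 to 4 members, the 2 arising without BrM3 shCtrl replicate 1, when KDM1A and KDM1B were lost. With the canonical transcript length, KDM1A was highest in 6 groups in place of 2. The cause of these changes was not tested.

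Replicate numbers were used as a replicate block only here. The labels give different passages, but not that a number marks a passage shared by both hairpins, and some same-numbered pairs did not correlate over 0.1. The 9 same-numbered shWDR5 and shCtrl pairs had correlations of deviations from the group mean between -0.178 and 0.729, and 7 were over 0.1. Their mean was 0.361, against -0.195 for pairs with different numbers. Deviations from a group mean cancel within the group, so the second mean largely follows from the first and is no separate reference. In each hairpin 6 of 9 libraries correlated best with their own number. KDM5A was higher with shWDR5 in 9 of 9 same-numbered pairs, KDM1A, KDM1B and KDM5B in 8 each and KDM5C in 6. The same was not counted over all tested genes. With the block, 2 members were called for the averaged response, KDM5A (adjusted p = 0.012) and KDM5B (0.045), beside 5668 of all 12081 tested genes. With the block and GC removal together 4 were called for the averaged response, KDM1B being the exception, and 3 in BrM3, namely KDM1A, KDM1B and KDM5A. Of all 12081 tested genes, that setting called 7279 averaged and 4468 in BrM3. The block could not be fitted between lines, as its numbers are nested in lines.

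Directions changed only where no call stood. For KDM1A in BoM the log2 fold change was 0.017 with DESeq2, 0.0169 with RLE, 0.0235 with filterByExpr, 0.016 without a filter, 0.025 after GC removal, 0.0196 with the block added and 0.00521 with only the libraries compared. KDM5C became -0.0146 averaged and -0.0578 in BoM with upper-quartile scaling, and 0.0124 in BoM against BrM3 after GC removal. Leaving out 1 library gave -0.0907 to 0.073 for KDM1A, -0.143 to 0.0783 for KDM1B, -0.0665 to 0.336 for KDM5A, -0.019 to 0.305 for KDM5B and -0.0546 to 0.0693 for KDM5C in BoM, and -0.0187 to 0.16 in BrM3 and -0.0428 to 0.117 in LM2 for KDM5C. The 20 named list genes had 0 reversals, and their calls held in 172 of 180 fits under other settings and in 331 of 360 that left out 1 library, where the lost calls were those of MGA, KDM7A and CHD1.

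Among all tested genes, the 756 calls in LM2, 1298 in BrM3 and 1946 in BoM became 1965, 2936 and 3403 after GC removal, 1434, 2277 and 3172 with the block, 3447, 4468 and 4813 with both, and 290, 1564 and 901 with only the libraries compared. DESeq2 gave 1142 in LM2, and thinning 511. The averaged count of 4280 became 7279 with both, and of these calls 1107 of 4197 were higher with upper-quartile scaling, against 1880 of 4280. Leaving out 1 library gave 384 to 990, 730 to 1559 and 1169 to 2321 calls. The change was over 1.5-fold in LM2 without shCtrl replicate 2 or 3 or shWDR5 replicate 1 or 2, in BrM3 without any shCtrl replicate or shWDR5 replicate 2 or 3, and in BoM without shCtrl replicate 2. Thinning ended 1 member call, that of KDM1A in BrM3 against LM2, at a log2 fold change of -0.211 (adjusted p = 0.07). That call was kept in 4 of 8 other settings, counting thinning, and in 8 of 18 fits that left out 1 library. The part of depth in its loss was not tested.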
